A study of Mus musculus with 6 samples.

Results

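The 40 mitosis genes described here encode proteins that drive, check or carry out cell division, from cyclin B and its kinase to the motors and scaffolds of cytokinesis. The set is a list of gene symbols, and every one of the 40 was found among the 44519 rows of the deposited table. The cells come from the mouse olfactory neuroepithelium, sorted for GFP and sequenced in bulk, and the labels call them horizontal basal stem cells (HBCs), the keratin-positive reserve stem cells of that epithelium. Controls are 3 libraries, replicates 1, 2 and 4, of Krt17-EGFP reporter mice without doxycycline. The other 3, TNF replicates 1, 3 and 4, stem from mice that carry Krt17-EGFP, Cyp2g1-rtTA and TRE-TNF, after 6 weeks of doxycycline. In the latter the Cyp2g1 promoter, active in sustentacular support cells, drives the doxycycline-dependent activator, so the design places tumor necrosis factor (TNF) production in neighbours of the HBCs. Genotype, transgene and doxycycline differ together between the groups and cannot be told apart. Ages and the number of animals per library are not given in the labels. Values are FPKM, fragments scaled for transcript length and for library size. How the libraries were scaled to each other is not stated, and the read depth behind the values is unknown. Where all libraries are listed, the replicates stand in that order.

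Entry into mitosis is driven by the kinase Cdk1 bound to A- and B-type cyclins, and many genes of mitosis are transcribed late in the cycle under the MuvB complex, B-Myb and FoxM1. Aurora and Polo-like kinases then build the spindle, the kinetochore ties chromosomes to microtubules, and the spindle checkpoint holds back the anaphase-promoting complex until every chromosome is attached. Adult HBCs divide rarely in undamaged epithelium, while the globose basal cells near them are the cycling progenitors of olfactory neurons.

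Most mitosis genes were not called as changed between the groups. Of the 40, 38 reached 1 FPKM in at least 3 libraries and were tested, and 34 of these reached it in all 6 libraries. In the test across all 15037 such rows (limma on log2(FPKM + 1), adjusted p below 0.05, n = 3 per group), 2 members fell in the TNF libraries, Racgap1 and a merged row that holds Foxm1, and 1 member, Melk, rose. These 3 calls are 7.89% of the tested members, where 38.0% of all tested rows were called, 10.9% higher and 27.2% lower. The groups did not overlap at 9 members (23.7% of those tested), 4 higher and 5 lower, against 53.0% of all tested rows, 16.8% higher and 36.2% lower. The median log2 change was 0.04 over the 40 genes and −0.22 over all tested rows, and 23 of the 40 estimates were above 0. For 20 of the 35 members that were not called the 95% interval of the log2 change lay within 1 of 0 on the log2(FPKM + 1) scale, where 1 unit is 2-fold for abundant genes and more than that for low ones. For the other 15 it reached 1 or more in size, so a change of that size lay within it. The labels do not say whether each library came from 1 animal, so what the p-values reflect is the spread of the samples, which may be technical. Scaling bears on these counts. Median-of-ratios scaling gave 2 higher and 2 lower members (15.3% and 21.7% of all tested rows), quantile normalization 6 and 2 (17.7% and 19.1%), and scaling to 12 HBC markers 0 and 10 (1.46% and 55.1%). The median change of all tested rows moved to −0.01, 0.05 and −1.48 with them, and that of the members to 0.22, 0.49 and −1.10. Without the filter on low values 0 members were higher and 2 lower (5.38% and 17.0% of rows). Leaving out single libraries, the count of lower members was 1 without TNF replicate 4 and 2 or 3 otherwise.

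**Figure D1:**
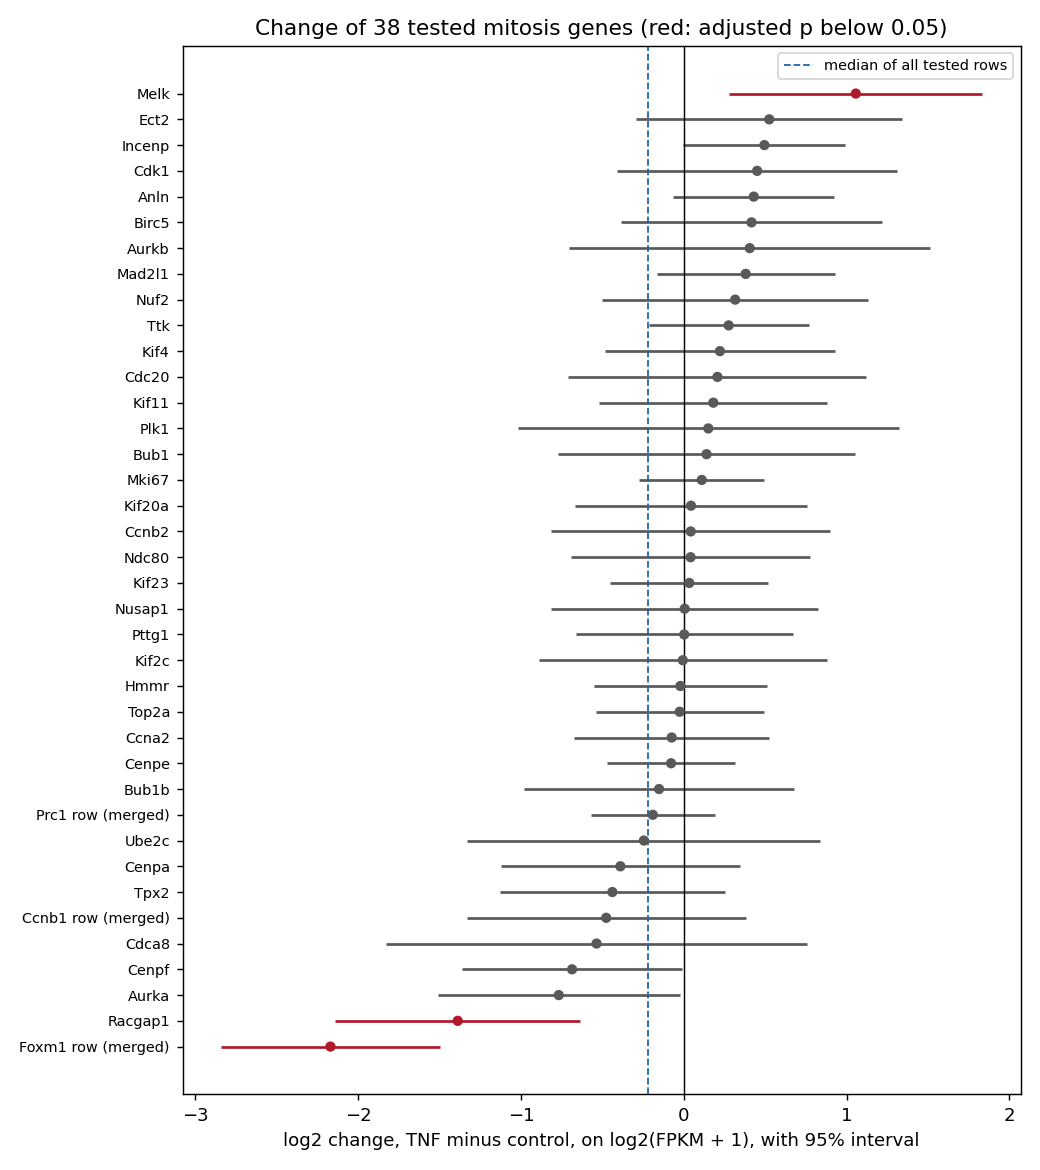
Log2 change (TNF minus control, on log2(FPKM + 1)) of the 38 tested mitosis genes with its 95% interval, ordered by size, with called genes in red and the median of all tested rows as a dashed line. The Foxm1 and Racgap1 rows lie lowest at −2.17 and −1.39, Melk lies highest at 1.06, and the intervals of most others cross 0.

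Control replicate 4 stood apart within its group. It exceeded both other control libraries at 34 of the 40 members, against 44.6% of all tested rows. It was the highest of all 6 libraries at 27 members (67.5%), against 33.7% of all tested rows. Its level was a median of 1.97 times the mean of control replicates 1 and 2 over the members, and 1.03 times over all tested rows. The ratio ran from 0.682 at Pttg1 to 4.06 at Plk1. This library also had the lowest HBC markers and the highest markers of several other cells. Summed over the 12 HBC markers it held 778 FPKM, against 2630 and 3480 FPKM in the other controls and 5025 to 7742 FPKM in TNF libraries, and 11 of the 12 were below both other controls. Of 11 globose basal cell markers 9 were above both other controls, with a sum of 896 FPKM against 470 and 536 FPKM (481 to 833 FPKM in TNF libraries). Between the groups the median log2 change of this list was −0.30, and of 9 tested markers 2 were called higher and 4 lower. All 13 myeloid markers were above both other controls as well, with a sum of 1750 FPKM against 345 and 389 FPKM (198 to 595 FPKM in TNF libraries), and so were all 10 T and NK cell markers (94.2 FPKM against 23.6 and 29.3 FPKM, and 9.73 to 13.8 FPKM in TNF libraries). Of 8 B and plasma cell markers 4 were above both other controls, with a sum of 951 FPKM against 100.5 and 128 FPKM, with 434 to 648 FPKM in TNF libraries. Mature neuron markers summed to 15377 FPKM against 7989 and 10176 FPKM, with 1050 to 2674 FPKM in TNF libraries. The 10 markers of immature olfactory neurons summed to 8614 FPKM against 4152 and 5740 FPKM, with 359 to 519 FPKM in TNF libraries, and all 10 fell between the groups, with a median log2 change of −4.77. All 10 mature neuron markers were called lower too (3 without control replicate 4). So were 9 of 13 myeloid, 4 of 6 tested T and NK cell and 4 of 7 tested B and plasma cell markers, with 0 higher in each list. Of the 12 HBC markers 4 were called higher and 0 lower. Of all tested rows 10.9% were called higher and 27.2% lower. TNF replicate 1 also stood apart within its group, with fibroblast markers at 41.5 FPKM against 1056 and 1522 FPKM, endothelial markers at 0.726 FPKM against 56.1 and 92.0 FPKM, and sustentacular cell markers at 8324 FPKM against 3462 and 3364 FPKM. None of the markers was at 0 in every library, and the part of these cells in the mitosis values was not tested. In bulk samples fewer cells of a type and less RNA per cell cannot be told apart.

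**Figure D2:**
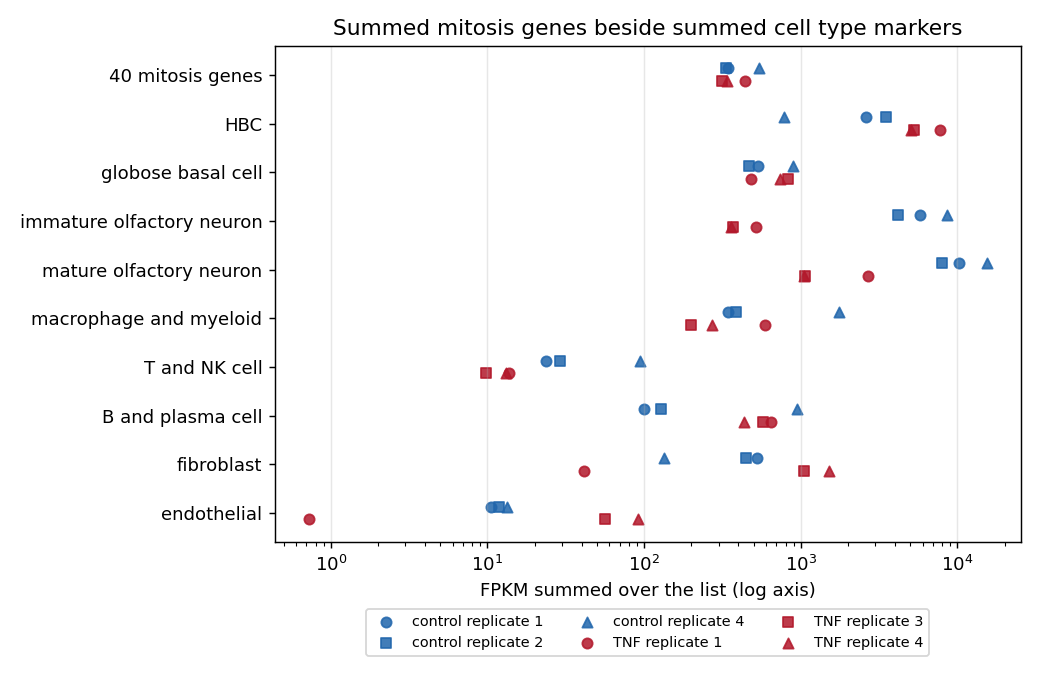
FPKM summed over the 40 mitosis genes and over 9 lists of cell type markers, on a log axis, with 1 symbol for each of the 6 libraries (controls blue, TNF red). Control replicate 4 holds the highest sum of mitosis genes (543 FPKM) together with the lowest sum of HBC markers (778 FPKM) and the highest sums of neuron, myeloid, T and B cell markers.

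Set against control replicates 1 and 2 alone, the typical member was slightly higher in the TNF libraries, while the sum over the members exceeded both of these controls in TNF replicate 1 only. The 40 genes summed to 343, 335 and 543 FPKM in controls against 443, 314 and 341 FPKM with TNF. Pttg1 alone, the most abundant member, held 93.1, 90.2 and 62.5 FPKM of these sums in controls and 115, 74.8 and 61.3 FPKM with TNF. The sums therefore depend strongly on that gene. The median of the 40 genes was 0.34, 0.10 and 0.30 log2 units above the mean of control replicates 1 and 2 in TNF replicates 1, 3 and 4, while the median of all tested rows was −0.20, −0.27 and −0.26. In control replicate 4 the members' median was 0.78 above. At 19 of the 40 members every TNF library was above both control replicates 1 and 2, against 19.3% of all tested rows. At 28 members every TNF library was below control replicate 4, against 47.5% of all tested rows. Control replicate 4 is the library in which most of these same members were highest, so setting it aside raises their TNF values relative to controls. The shares of all tested rows are not shaped by that choice in the same way, so these comparisons are a description and not a test. With control replicate 4 left out of the test, the calls were again 1 higher and 2 lower, where 9.35% and 24.2% of all tested rows were called, and the members' median change was 0.31. Without control replicate 4 and TNF replicate 1 together, 5 members were higher and 4 lower (18.9% and 39.7% of all tested rows).

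**Figure D3:**
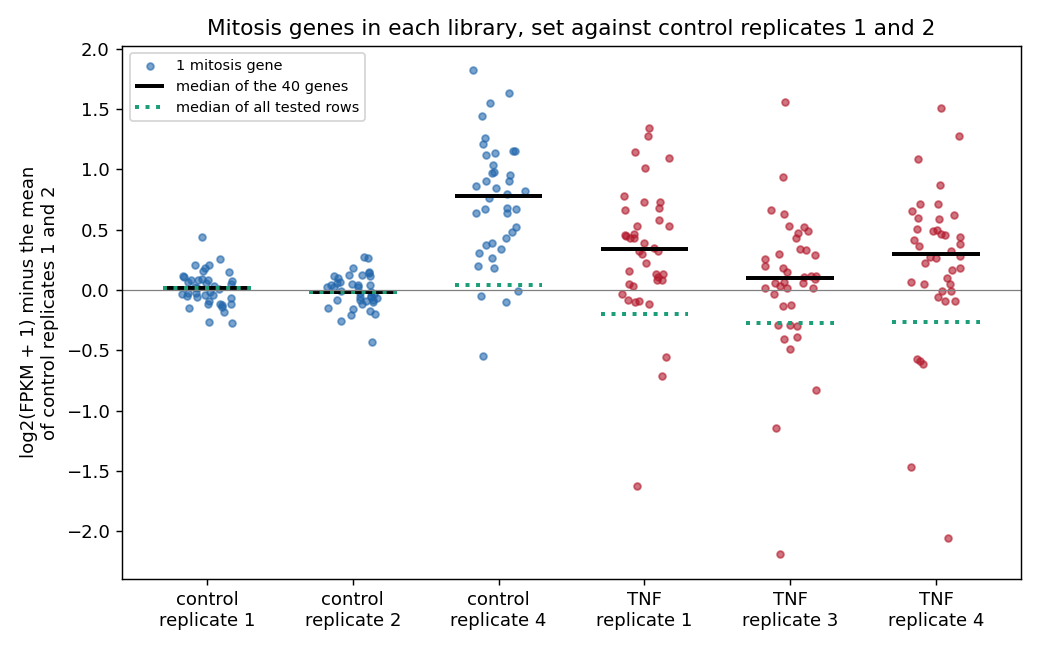
Log2(FPKM + 1) of each of the 40 mitosis genes minus the mean of control replicates 1 and 2, by library, with the members' median as a black line and the median of all tested rows as a dotted green line. Control replicate 4 lies highest, with a median of 0.78, and the TNF libraries lie between it and the other controls, at 0.10 to 0.34.

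Promoter sequence was examined because late cell cycle genes are known to share the cell cycle genes homology region (CHR), a short element bound by MuvB, together with CCAAT boxes bound by NF-Y. Windows of 250 bases before and 50 bases from the annotated start site on were taken from RefSeq (GRCm38.p6), which held 34 of the 40 genes. The CHR letters, in the common form TTTGAA or in the second form TTCGAA on either strand, were found in 26 of the 34 genes (76.5%), against 21.7% of 27025 genes with a window. Their first base lay within 50 bases of the start site in 24 genes (70.6%), against 6.12% of all genes. CCAAT on either strand was found in 25 of the 34 (73.5%), against 41.1% of all genes, and 1 pair of matches to different motifs overlapped. The stretches below run from 100 bases before the start site to 30 bases from it on. They belong to the 6 members of smallest p with a CHR match among those that the rule for named genes takes. That rule does not take Cenpf, Ect2, Anln or Ttk, which have a match and a smaller p than some members shown. The stretch of Prc1 is from the first of its 2 windows. Capitals mark either CHR form or CCAAT, as written or as reverse complement. In all 6 windows a CCAAT match lies upstream of a CHR match.
Racgap1, chr15:99651627-99651756, minus strand: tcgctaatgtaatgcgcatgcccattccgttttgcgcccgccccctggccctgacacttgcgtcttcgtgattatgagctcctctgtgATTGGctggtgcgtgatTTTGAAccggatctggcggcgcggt
Aurka, chr2:172370541-172370670, minus strand: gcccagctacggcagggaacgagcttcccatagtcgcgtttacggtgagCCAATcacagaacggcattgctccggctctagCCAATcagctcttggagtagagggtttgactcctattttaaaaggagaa
Cenpa, chr5:30666786-30666915, plus strand: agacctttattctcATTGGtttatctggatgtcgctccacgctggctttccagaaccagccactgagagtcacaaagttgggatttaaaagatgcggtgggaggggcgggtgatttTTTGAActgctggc
Cdk1, chr10:69352883-69353012, minus strand: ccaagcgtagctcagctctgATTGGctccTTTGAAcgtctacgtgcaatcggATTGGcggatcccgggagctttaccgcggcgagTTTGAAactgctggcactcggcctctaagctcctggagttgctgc
Prc1, chr7:80294351-80294480, plus strand: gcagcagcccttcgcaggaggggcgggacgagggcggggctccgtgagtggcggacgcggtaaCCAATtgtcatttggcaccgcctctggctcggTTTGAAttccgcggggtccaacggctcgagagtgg
Cdca8, chr4:124936888-124937017, minus strand: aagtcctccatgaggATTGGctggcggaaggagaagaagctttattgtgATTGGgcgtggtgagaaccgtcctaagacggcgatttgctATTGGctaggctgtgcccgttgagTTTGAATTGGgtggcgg
The match of Aurka, from base 33 to base 38 after the start, lies past the stretch shown. The 3 called members differ in this respect, since Racgap1 has TTTGAA from base 6 to base 11 with a CCAAT box just upstream, the window of Melk held none of the motifs, and Foxm1 is among the 6 genes not matched in the table. A match of letters is a description of the window and not a measured binding site.

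**Figure D4:**
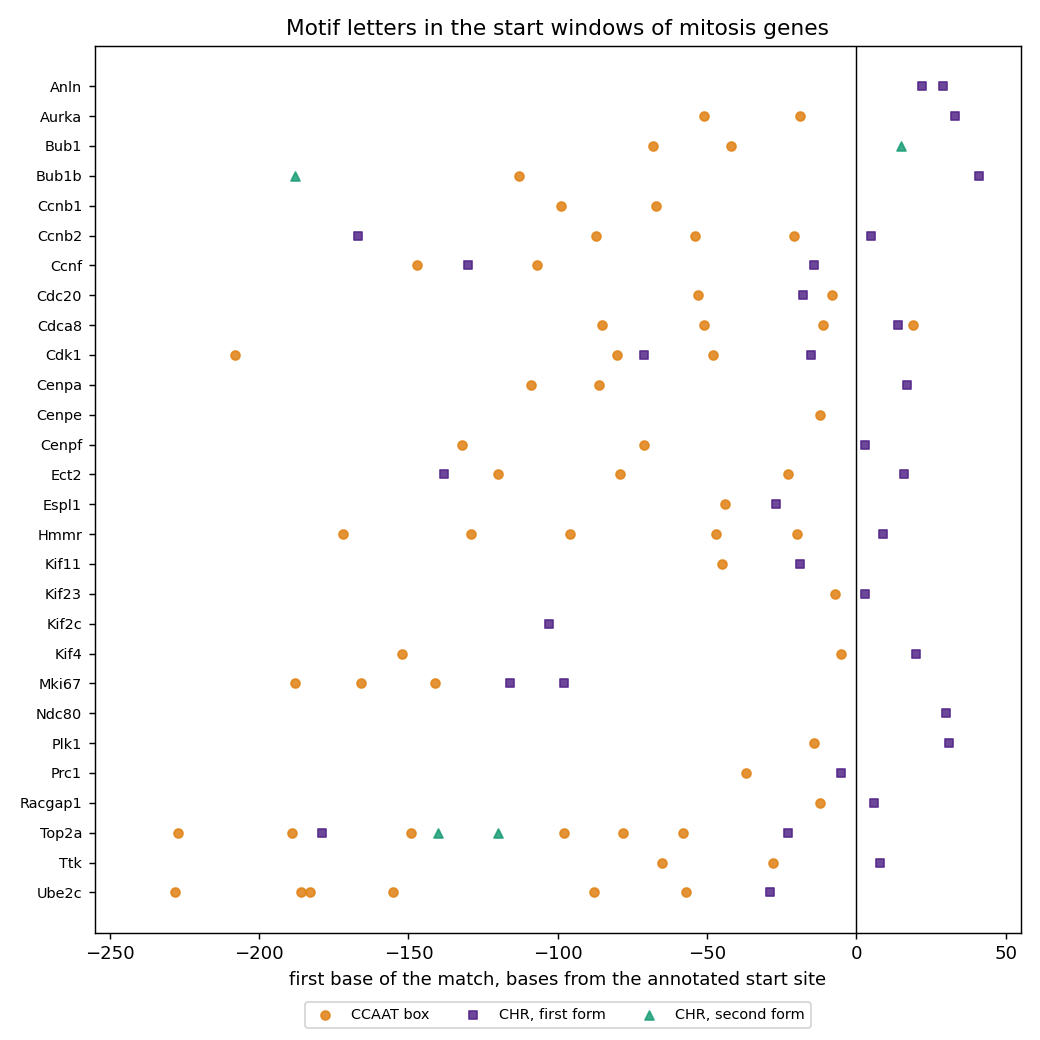
First base of each match to the CHR letters (squares and triangles) and to CCAAT (circles) in the windows of the 28 mitosis genes with any match, in bases from the annotated start site, with 1 window per gene. The CHR matches gather around the start site, and CCAAT matches lie mostly upstream of them.

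Among drivers of mitotic entry and markers of proliferation, only the Foxm1 row and Melk passed the test of 8 tested. Mki67, the gene of the antigen Ki-67 that coats mitotic chromosomes, was among the lowest members with 1.17, 0.914 and 0.969 FPKM in controls against 1.11, 1.06 and 1.38 FPKM with TNF. The groups overlapped, and its log2 change of 0.11 ± 0.16 (SE) had a 95% interval from −0.27 to 0.49 (adjusted p = 0.624). After quantile normalization Mki67 was called higher, at 0.87 (limma adjusted p = 0.00662), where 17.7% of all tested rows were called higher. Top2a, the topoisomerase that untangles sister chromatids, measured 6.91, 7.14 and 9.53 FPKM in controls against 7.22, 6.82 and 9.01 FPKM with TNF, with an interval from −0.54 to 0.49. For both genes no library was 2-fold above another.

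Cdk1, the kinase of mitotic entry, measured 15.6, 13.8 and 23.4 FPKM in controls against 38.7, 15.4 and 22.6 FPKM with TNF. The highest value belonged to TNF replicate 1 and the groups overlapped (log2 change 0.45 ± 0.36, adjusted p = 0.365). Its mitotic partner Ccnb2 measured 4.91, 5.48 and 13.3 FPKM in controls against 7.95, 6.81 and 7.54 FPKM with TNF, which all lay between control replicate 4 and the other controls. Ccnb1, the main mitotic cyclin, shares a merged row with the centromere gene Cenph, with 9.46, 9.79 and 22.6 FPKM in controls against 10.6, 7.09 and 9.54 FPKM with TNF (log2 change −0.48 ± 0.36, adjusted p = 0.337). Ccna2, cyclin A2 of S phase and early mitosis, was at 7.24 ± 2.35 and 6.64 ± 0.590 FPKM (SD, n = 3 each, adjusted p = 0.842), although its exons overlap those of Exosc9. Ccnf, an F-box protein that limits centrosome duplication, measured 0.801, 0.753 and 1.55 FPKM in controls against 1.18, 0.631 and 0.667 FPKM with TNF and was too low to be tested.

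The merged row of Foxm1 gave the largest decrease among the members, and it cannot be assigned to that gene alone. Foxm1 encodes the forkhead factor that activates many late cell cycle genes. Its row, which overlaps exons of Tex52 and Gm44596, also names Nrip2 and 4933413G19Rik and spans chromosome 6, 128362967 to 128408932 (mm10), whereas Foxm1 itself ends at 128376146 in the GENCODE M21 annotation. The row measured 14.8, 11.6 and 20.9 FPKM in controls against 3.58, 2.09 and 2.39 FPKM with TNF. Every TNF library was below every control, and the row fell by 2.17 on the log2 scale (SE 0.28, adjusted p = 0.00174). Its call held when any single library was left out, with changes of −2.36 to −1.96. Which of the 3 genes lost transcripts was not tested, since the table gives 1 value for them.

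Melk, a kinase of dividing and progenitor cells, was the only member called higher. It measured 2.14, 3.05 and 4.68 FPKM in controls against 5.10, 9.48 and 9.15 FPKM with TNF. All TNF libraries were above all controls, and the gene (chromosome 4, 44300876 to 44364675) rose by 1.06 ± 0.33 (SE) on the log2 scale (adjusted p = 0.0419). This call was lost without control replicate 1 or 2 or TNF replicate 3 or 4 (adjusted p = 0.102 to 0.139) and without the filter on low values (adjusted p = 0.0767). Scaled to the HBC markers, Melk was at −0.15.

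**Figure D5:**
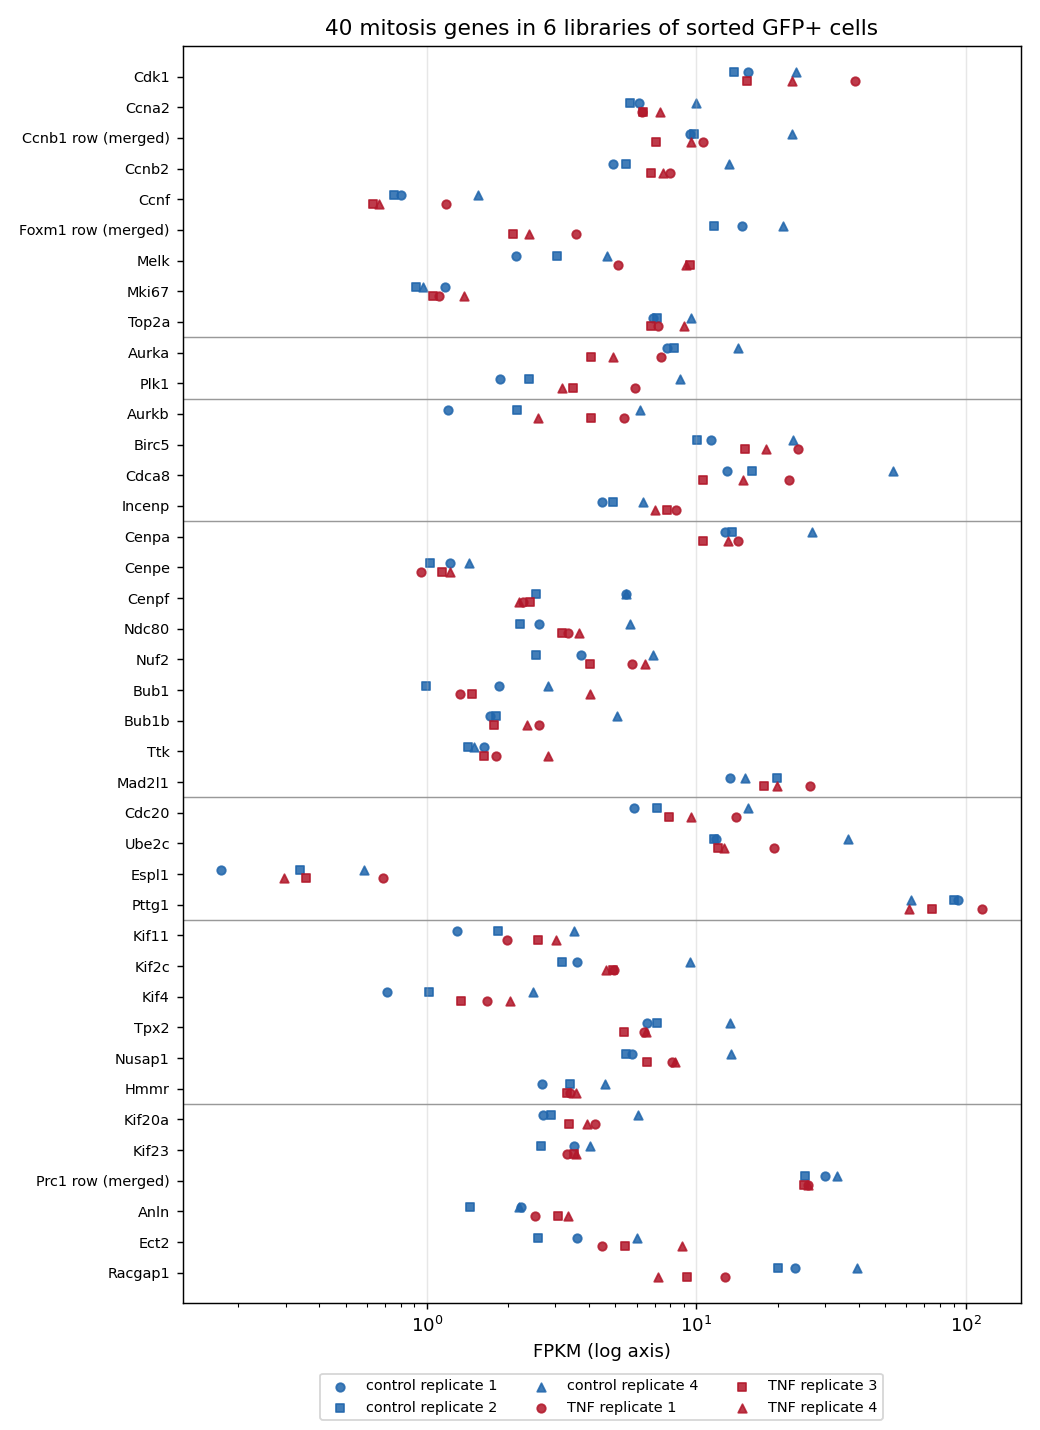
FPKM of the 40 mitosis genes on a log axis in each of the 6 libraries, grouped by role from cell cycle drivers at the top to cytokinesis genes at the bottom, with controls in blue and TNF libraries in red. Control replicate 4 (blue triangle) is the highest of the 6 libraries at 27 genes (and at 33.7% of all tested rows). The Foxm1 row and Racgap1 are lower and Melk higher in all TNF libraries.

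Neither spindle kinase passed the test. Aurka, which matures centrosomes, measured 7.76, 8.23 and 14.3 FPKM in controls against 7.40, 4.06 and 4.89 FPKM with TNF. The groups did not overlap, though TNF replicate 1 lay close to the controls, and the change of −0.77 ± 0.31 missed the threshold (adjusted p = 0.0960). Without TNF replicate 1 it passed, at −0.98 (adjusted p = 0.0419). Plk1, the Polo-like kinase needed from mitotic entry to cytokinesis, measured 1.88, 2.39 and 8.66 FPKM in controls against 5.91, 3.49 and 3.16 FPKM with TNF. Its interval from −1.02 to 1.32 reaches 1 in both directions.

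The chromosomal passenger complex, which corrects faulty attachments and directs cleavage, showed estimates above 0 for 3 of 4 subunits and no call. Aurkb, its kinase, measured 1.20, 2.17 and 6.17 FPKM in controls against 5.40, 4.06 and 2.58 FPKM with TNF. Birc5, known as survivin, measured 11.3, 10.02 and 22.9 FPKM in controls against 23.9, 15.1 and 18.1 FPKM with TNF. For both genes every TNF library was above control replicates 1 and 2, and control replicate 4 lay among the highest values (adjusted p = 0.530 and 0.371).

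Incenp, the scaffold of the complex, was at 4.45 to 6.35 FPKM in controls and 7.01 to 8.43 FPKM in TNF libraries, without overlap but short of the threshold (log2 change 0.50 ± 0.21, adjusted p = 0.106). It passed after median-of-ratios scaling (0.69, adjusted p = 0.0390). Cdca8, known as borealin, measured 13.0, 16.0 and 53.6 FPKM in controls against 22.1, 10.6 and 14.9 FPKM with TNF. Its estimate of −0.54 ± 0.54 became 0.07 without control replicate 4, the library with the extreme value.

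No gene of the kinetochore and the spindle checkpoint was called among 9 tested, and their estimates ran from −0.69 to 0.38. Cenpa, the histone variant that marks centromeres, measured 12.8, 13.6 and 26.9 FPKM in controls against 14.3, 10.6 and 13.1 FPKM with TNF. All TNF values were near those of control replicates 1 and 2 (log2 change −0.39 ± 0.31, adjusted p = 0.359). Cenpf, a large protein of the outer kinetochore, measured 5.47, 2.54 and 5.47 FPKM in controls against 2.27, 2.42 and 2.19 FPKM with TNF. The groups did not overlap, the change of −0.69 ± 0.28 missed the threshold (adjusted p = 0.101), and it passed at −0.98 without control replicate 2 (adjusted p = 0.0200).

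Ndc80 and Nuf2, partners in the complex that grips microtubule ends, were at 3.49 ± 1.88 and 4.39 ± 2.26 FPKM in controls and at 3.39 ± 0.247 and 5.43 ± 1.26 FPKM in TNF libraries. The motor Cenpe was at 1.23 ± 0.202 and 1.11 ± 0.136 FPKM. Among checkpoint genes, Mad2l1 was the most abundant at 16.2 ± 3.42 FPKM in controls and 21.4 ± 4.55 FPKM in TNF libraries (adjusted p = 0.237). The checkpoint kinase Ttk was at 1.51 ± 0.106 and 2.08 ± 0.639 FPKM, and its groups did not overlap although the change of 0.28 did not pass (adjusted p = 0.332). Bub1 and Bub1b stayed between 0.990 and 5.06 FPKM in every library.

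Genes that trigger and execute sister separation held the widest range of levels among the members. Pttg1, which encodes securin, the inhibitor of separase, was the most abundant member with 93.1, 90.2 and 62.5 FPKM in controls against 115, 74.8 and 61.3 FPKM with TNF. It is the 1 member at which control replicate 4 was the lowest control, and its log2 change was 0.00 ± 0.28 (95% interval −0.66 to 0.67). Espl1, separase itself, was the least abundant, with 0.172, 0.337 and 0.585 FPKM in controls against 0.685, 0.356 and 0.296 FPKM with TNF, and it was not tested.

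Cdc20, the activator of the anaphase-promoting complex, measured 5.88, 7.12 and 15.6 FPKM in controls against 14.1, 7.92 and 9.58 FPKM with TNF. TNF values fell between control replicate 4 and the other controls (log2 change 0.21 ± 0.38, adjusted p = 0.705). Ube2c, the ubiquitin-conjugating enzyme of that complex, ran from 11.7 to 36.4 FPKM in controls, highest in replicate 4, and from 12.1 to 19.4 FPKM with TNF (adjusted p = 0.705). The exons of both genes overlap a gene on the opposite strand, Elovl1 for Cdc20 and Tnnc2 for Ube2c, so their levels are uncertain.

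All 6 genes of spindle motors and microtubule binding proteins were highest in control replicate 4 (33.7% of all tested rows were), and none was called. Kif11, the motor that pushes spindle poles apart, measured 1.29, 1.83 and 3.51 FPKM in controls against 1.98, 2.58 and 3.01 FPKM with TNF. Every TNF library was above control replicates 1 and 2 (log2 change 0.18 ± 0.29, adjusted p = 0.663). Tpx2, which activates Aurora A on the spindle, ran from 6.57 to 13.3 FPKM in controls and 5.37 to 6.52 FPKM with TNF, with the groups not overlapping and an adjusted p of 0.276. Kif2c, Nusap1 and Hmmr had estimates within 0.03 of 0, and Kif4 was at 1.40 ± 0.943 and 1.68 ± 0.347 FPKM. For Kif2c the TNF libraries lay close together at 4.63 to 4.96 FPKM, while the controls ran from 3.17 to 9.47 FPKM.

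Cytokinesis held the clearest decrease of a gene with a row of its own. Racgap1 (chromosome 15, 99620496 to 99651656), the GTPase-activating subunit of centralspindlin, measured 23.3, 20.1 and 39.6 FPKM in controls against 12.8, 9.24 and 7.19 FPKM with TNF. Every TNF library was below every control, and the gene fell by 1.39 on the log2 scale (SE 0.32, adjusted p = 0.0140). Its call was kept without control replicate 4, at −1.11 (adjusted p = 0.0289), and was lost without TNF replicate 4, at −1.21 (adjusted p = 0.0504).

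The partners of Racgap1 were not called. Kif23, the motor subunit of the same complex, was at 3.40 ± 0.687 and 3.46 ± 0.134 FPKM, with a 95% interval from −0.45 to 0.52. Ect2, a cytokinesis factor that centralspindlin recruits, measured 3.60, 2.59 and 6.03 FPKM in controls against 4.47, 5.44 and 8.84 FPKM with TNF (log2 change 0.53 ± 0.34, adjusted p = 0.272). In control libraries the FPKM of Racgap1 exceeded that of Kif23 and Ect2 in every library, and in TNF replicate 4 it was below that of Ect2. Whether the change of Racgap1 differs from that of its partners was not tested.

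The other cytokinesis genes were not called either. Anln, which encodes anillin of the cleavage furrow, was at 1.45 to 2.24 FPKM in controls and 2.52 to 3.33 FPKM in TNF libraries, without overlap (log2 change 0.43 ± 0.21, adjusted p = 0.150). Kif20a was at 3.90 ± 1.91 and 3.83 ± 0.431 FPKM, though its exons overlap those of Cdc23. Prc1, the bundler of midzone microtubules, shares a merged row with the endosomal gene Vps33b, with 29.9, 25.4 and 33.3 FPKM in controls against 25.9, 25.0 and 25.9 FPKM with TNF. That row did not pass (adjusted p = 0.386).

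Among 101 other genes of mitosis, a list that covers condensin, cohesin, further kinetochore subunits and the anaphase-promoting complex, 92 were tested, 13 fell and 1 rose. One of the tested rows, that of Cenph, is the merged row also used for the member Ccnb1, and it was not called. The 13 lower and 1 higher genes are 14.1% and 1.09% of those tested, beside 27.2% and 10.9% of all tested rows, and the list's median log2 change was −0.12. The count of lower genes was 7 when control replicate 1 was left out, 7 as well when either TNF replicate 3 or replicate 4 was, and 12 without control replicate 4. Ncapg2, a subunit of condensin II, fell from 38.2 ± 5.36 to 2.28 ± 0.356 FPKM (SD, n = 3 each, log2 change −3.57 ± 0.20, adjusted p = 0.000368). Ncaph2, the kleisin of the same complex, was at 75.9 ± 4.07 and 77.7 ± 21.9 FPKM. Hjurp, the chaperone that loads Cenpa at centromeres, fell from 31.7 ± 3.26 to 11.7 ± 0.985 FPKM, and the spindle attachment gene Ska2 fell from 14.9 ± 1.09 to 5.53 ± 0.842 FPKM (adjusted p = 0.00137 and 0.00276). Ncapd2 of condensin I fell from 14.2 ± 3.05 to 4.84 ± 1.10 FPKM (adjusted p = 0.00505), whereas the smaller change of the condensin ATPase Smc4 was −0.52 ± 0.15 (adjusted p = 0.0320). The single higher gene was Numa1, which anchors spindle poles, from 12.6 ± 2.86 to 20.8 ± 2.01 FPKM (adjusted p = 0.0387). The most abundant genes of this list, Anapc5 and Anapc13 of the anaphase-promoting complex, were at 210 ± 6.68 and 126 ± 8.24 FPKM in controls and at 152 ± 32.9 and 129 ± 33.5 FPKM in TNF libraries and did not pass (adjusted p = 0.0935 and 0.994). Smc4 and Numa1 are named here although they lie outside the rule for named genes, having been chosen after their values were seen, as was Ncaph2.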

How the data were processed

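The deposited table gives FPKM for each of 6 libraries over 44519 rows. Its title speaks of raw counts, but 99.98% of the values above 0 are not whole, so no count model was used. Per the submitters' processing notes, the tools include TopHat2 2.1.1 and Cuffdiff 2.2.1 and the build is mm10; no source used here gives their settings. FPKM summed to 688190 to 838417 per library. Of the 40 members, 3 have merged rows, 12 have exons that overlap another gene (GENCODE M21), and positions count from 1. Overlaps not named above are those of Ccnf, Top2a, Plk1, Cdca8, Kif4, Nusap1 and Prc1. Only 19 members have a row with the bounds of the gene in that annotation, and the rows of Aurka and Kif20a, among others, extend beyond the gene.

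The 15037 rows that reach 1 FPKM in 3 or more libraries entered a limma 3.58.1 fit (R 4.3.3) of the 2 groups on log2(FPKM + 1), its prior variance following the mean level. Benjamini-Hochberg adjustment ran over all of them, and the threshold was 0.05. Fold changes on this scale understate the change of low genes. Intervals are 95% intervals for each gene, without adjustment. The procedure was tested on simulated data with independent noise in each value. Such data hold no library that stands apart across many genes, so that case was not covered. The members and lists were chosen with earlier results of these data known. Values per library are given for 13 members set by name (Mki67, Top2a, Cdk1, Ccnb1, Ccnb2, Aurka, Aurkb, Plk1, Foxm1, Birc5, Cenpa, Cdc20 and Kif11), for every called member and for the 3 highest and 3 lowest by mean, and for a few others chosen after their values were seen (Cenpf and Ect2). Of the other lists, the rule took the 4 genes of smallest p and the 2 of highest mean. Of 290 list symbols outside the members 3 were unmatched. Where several rows named a gene, only the row of highest mean FPKM was used. Kif2c, Hjurp and Cdkn2c have 2 rows each and Rb1 has 3, so their values may not cover the whole gene. Other list genes have several rows too, among them the HBC markers Krt14 and Itgb4. The row used for Krt14 is merged with Krt17, so the HBC marker sum and scaling include that merged row.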

Additional observations from a re-analysis of the deposited data

How the results depend on the processing

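The counts and median of the members, the counts of the other mitosis genes and the estimates of the tested members that the rule for named genes takes were recomputed with single choices changed (pseudocount, filter, each library left out, 4 other scalings, a robust variance). A smaller pseudocount, a filter on the mean and the robust variance left the counts of members as they were. The Foxm1 row was called in every setting. Leaving out 1 library gave 1 to 3 lower and 0 to 1 higher members, and 7 to 16 lower and 0 to 1 higher genes among the other mitosis genes. The counts of members, higher and lower, were 0 and 2 without the filter, 2 and 2 after median-of-ratios scaling, 6 and 2 after quantile normalization, 0 and 10 after HBC marker scaling, and 5 and 4 without control replicate 4 and TNF replicate 1 together. Among the other mitosis genes these were 0 and 9, 5 and 9, 7 and 7, 0 and 42, and 7 and 21, and upper-quartile scaling gave 2 and 11. The members' median change was 0.49 after quantile normalization and −1.10 after HBC marker scaling.

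Among those named members, estimates turned negative under HBC marker scaling for Cdk1 (−0.91), Ccnb2 (−1.23), Melk (−0.15), Mki67 (−0.66), Plk1 (−1.02), Aurkb (−0.74), Birc5 (−0.93), Cdc20 (−1.10), Pttg1 (−1.40) and Kif11 (−0.86). Top2a turned positive after median-of-ratios (0.18), upper-quartile (0.11) and quantile (0.28) adjustment and without control replicate 4 and TNF replicate 1 (0.14). Pttg1 was −0.43 and called lower without those 2 libraries (limma adjusted p = 0.0363), and it was also called lower under HBC marker scaling (limma adjusted p = 0.0368). Of all tested rows 39.7% and 55.1% were called lower in these settings. Prc1 was 0.033 after median-of-ratios scaling. With single libraries left out, signs turned among them for Ccnb2 (−0.19 to 0.44), Top2a (−0.13 to 0.11), Plk1 (−0.18 to 0.69), Cdca8 (−0.91 to 0.071), Cdc20 (−0.044 to 0.59), Pttg1 (−0.25 to 0.20) and Kif11 (−0.032 to 0.46). None of these estimates but that of Melk was called in the main setting, and the cause was not tested.

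The replicate numbers 1 and 4 occur in both groups. Deviations of same-numbered libraries from their group means correlated at −0.064 and −0.087, within the −0.146 to 0.179 of differently numbered pairs. With n = 3 per group these values cannot decide whether same-numbered libraries were paired. Control replicate 2 and TNF replicate 3 have no same-numbered partner. With the replicate block only replicates 1 and 4 therefore inform the difference between the groups. In that fit 0 members were higher and 1 lower, the other mitosis genes gave 0 and 2, and Ccnb2 was −0.070. An effect of pairing on these counts cannot be told apart from that of fewer libraries in use. Read depth is unknown, which leaves the precision of low genes such as Espl1 unstated.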

Other observations

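Outside mitosis, some genes of the earlier cell cycle were called, where 10.9% of all tested rows were called higher and 27.2% lower. Of 36 tested genes of DNA replication and S phase, 2 rose and 2 fell, with a median log2 change of −0.04 over the 38 matched. Among 14 tested G1 cyclins, kinases and inhibitors 3 rose and 1 fell, beside those same shares. Cdkn2b, an inhibitor of the cyclin D kinases, rose from 1.17 ± 0.369 to 7.52 ± 2.16 FPKM (SD, n = 3 each, limma adjusted p = 0.00221), and its relative Cdkn2c rose from 10.5 ± 2.12 to 25.6 ± 7.27 FPKM (limma adjusted p = 0.0111). Cdk2, the kinase of S phase entry, rose by 0.98 ± 0.23 (SE) on the log2 scale, and Cdkn2d fell by 0.91 ± 0.29 (limma adjusted p = 0.0145 and 0.0446). Ccnd2 and Cdk4, the most abundant of the list, had log2 changes of 1.37 and −0.25 and did not pass (limma adjusted p = 0.0654 and 0.483).

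Of 19 tested E2F, retinoblastoma and MuvB genes 1 rose and 5 fell, beside 10.9% and 27.2% of all tested rows, so the count of lower genes is near the background. E2f3, an activating E2F, rose from 0.581 ± 0.234 to 3.58 ± 1.81 FPKM, and E2f2, of the same class, fell from 2.28 ± 0.619 to 0.301 ± 0.0891 FPKM (limma adjusted p = 0.00909 and 0.00253). The MuvB subunit Lin52 fell from 24.9 ± 1.34 to 13.6 ± 0.391 FPKM, and Rb1, the retinoblastoma gene, fell from 28.5 ± 1.21 to 10.96 ± 4.22 FPKM (limma adjusted p = 0.00565 and 0.0104). The values of Rb1 are those of the highest of 3 rows that name it. Without control replicate 4 these lists gave 4 higher and 0 lower G1 genes, 2 higher and 3 lower E2F list genes, and 5 higher and 2 lower S phase genes, where 9.35% of all tested rows were higher and 24.2% lower.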
